A study of Mus musculus with 13 samples.

Results

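Thymic invariant natural killer T (iNKT) cells of aged mice, sorted as iNKT17 and as iNKT2p, were compared gene by gene. The comparison covered the 10667 genes, of 24421 in the table, for which 2 or more of the 4 libraries reached 10 normalized counts, and there were 2 libraries per sort. All cells came from wild-type female BALB/c mice of 25 weeks, untreated, and were sorted as B220- CD3+ cells that bind a CD1d tetramer. CD122- CD4+ cells made up the iNKT2p sort and CD122- CD4- cells the iNKT17 sort, so Cd4 is no finding here. Each library pooled the thymi of 7 mice, with 73800 and 74600 sorted cells for iNKT2p and 500000 and 499000 for iNKT17. The p in iNKT2p stands for a pool: by their protein staining the study's authors saw more than 1 kind of cell in this gate of aged mice, and a check after sorting found iNKT17 cells carried over into it, so an iNKT2p value is that of a mixture. In bulk samples such as these, fewer cells of a type and less RNA per cell cannot be told apart. The same gates in mice of 6 weeks (iNKT2 and iNKT17, 2 libraries each, 3 mice pooled) gave a second contrast that shares no library with the first, and the CD122+ iNKT1 cells of 25 weeks are set beside it.

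iNKT cells are T cells with a nearly invariant receptor that reads lipids on CD1d. They branch off from CD4+ CD8+ thymocytes, which are still rearranging receptor genes, and mature in the thymus under the transcription factor PLZF. iNKT2 cells need GATA3 and make IL-4, and iNKT17 cells carry receptors for IL-23 and IL-1, and make IL-17 when stimulated.

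Promoter sequence is shown for 4 receptor and cytokine genes that were called in opposite directions. Each is the 250 bases before the start of the gene in RefSeq (GRCm38.p6), 5′ to 3′ on the gene's strand. Il23r (chr6:67491856-67492105, minus strand) and Ccr6 (chr17:8235793-8236042, plus strand) were higher in iNKT17 cells, and capitals mark AGGTCA, the core site of nuclear receptors, or its reverse complement. Il13 (chr11:53634703-53634952, minus strand) and Ccr8 (chr9:120091883-120092132, plus strand) were held by the iNKT2p sort, and capitals mark AGATAA, the site of GATA factors, or its reverse complement.
Il23r: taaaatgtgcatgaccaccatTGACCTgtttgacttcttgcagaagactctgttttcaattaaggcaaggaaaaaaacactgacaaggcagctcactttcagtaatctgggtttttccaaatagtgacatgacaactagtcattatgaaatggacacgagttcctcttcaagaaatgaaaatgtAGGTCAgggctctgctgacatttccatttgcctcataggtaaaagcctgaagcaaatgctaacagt
Ccr6: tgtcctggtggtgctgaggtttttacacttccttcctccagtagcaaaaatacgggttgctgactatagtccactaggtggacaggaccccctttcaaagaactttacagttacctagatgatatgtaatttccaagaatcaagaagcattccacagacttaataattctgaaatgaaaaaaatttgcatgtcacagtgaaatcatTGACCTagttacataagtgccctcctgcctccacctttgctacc
Il13: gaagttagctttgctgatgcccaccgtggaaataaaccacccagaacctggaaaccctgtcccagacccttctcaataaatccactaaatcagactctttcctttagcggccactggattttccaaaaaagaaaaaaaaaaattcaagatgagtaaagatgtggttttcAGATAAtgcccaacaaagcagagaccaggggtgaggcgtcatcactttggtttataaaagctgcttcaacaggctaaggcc
Ccr8: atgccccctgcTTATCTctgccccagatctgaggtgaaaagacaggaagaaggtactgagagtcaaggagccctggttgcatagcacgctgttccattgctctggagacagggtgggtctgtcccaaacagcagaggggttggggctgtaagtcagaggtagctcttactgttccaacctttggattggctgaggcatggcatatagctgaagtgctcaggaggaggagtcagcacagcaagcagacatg
Il23r held AGGTCA once on each strand, and Ccr6, Il13 and Ccr8 each held 1 match. Each window was marked for 1 motif only, so overlap between both motifs was not examined. AGGTCA was found on either strand in 13.8% of all 27025 promoters of the table, in 10.03% of the 8123 compared genes that had a promoter there, in 14.2% of those called higher and in 8% of those called lower in iNKT17. AGATAA was found in 10.3% of all promoters, in 5.66% of the compared genes, in 6.09% of those called higher and in 9.41% of those called lower. Of 3 more motifs searched on both strands, CTTTGA, of TCF and LEF factors, was in 9.57% of promoters of genes called higher and 8.94% of those called lower. For TGTGGT, of RUNX factors, the shares were 12.8% and 12.2%. For TCACAC, of T-box factors, they were 7.54% and 10.1%. Over the compared genes these 3 stood at 10.5%, 10.7% and 8.48%, and over all promoters of the table at 14.1%, 14.2% and 12.2%. AGGTCA was in 4 of 12 promoters of iNKT17 marker genes. AGATAA was in 6 of 49 promoters of the genes held by the iNKT2p sort, as defined below. The 4 windows shown, which all hold their motif, are thus not typical of these sets. A match describes these letters and is no evidence of binding.

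The 4 libraries held between 5946582 and 9107274 reads in genes, so that 3 reads, taken as the floor below, were worth 2.13 to 3.23 normalized counts. Of all genes tested, 88.4% lay within 2-fold between both iNKT2p libraries and 89.0% between both iNKT17 libraries. Zbtb16, which encodes PLZF and defines iNKT cells, was at 5882 and 5310.1 in iNKT2p and at 3837 and 4177 in iNKT17, and the markers of iNKT2 and iNKT17 cells are described with their lists. Summed B cell genes did not exceed 14.0 and erythroid genes 2.16 in any of the 4. Myeloid genes summed to 34.1 and 108 in iNKT2p and to 55.6 and 79.6 in iNKT17, and thymic epithelium genes to 31.9 and 73.3 and to 47.3 and 38.8. Endothelium genes summed to 479 and 528 in iNKT2p and to 165 and 290 in iNKT17, of which Pecam1, an adhesion molecule that leukocytes carry too, was the highest, and 5 of the 9 had no read in any of the 4 libraries. Of these 5 lists, 6 genes were among the genes compared and a pair of them, Fcgr3 and Pecam1, passed the test, both lower in iNKT17. Genes of ILC2 and mast cells did not exceed a sum of 22.6, and of 3 genes of regulatory T cells that were compared 1 was higher and 1 lower in iNKT17. The part of such cells in the results was not tested. In the young libraries the epithelium genes summed to 30.3 and 144 in iNKT2 and to 57.6 and 156 in iNKT17, so the second library of each stood apart. These also held reads of Y-linked genes, which summed to 7.58 and 6.10, although all mice were female by the study's methods, against 0 in the first libraries and at most 1.08 in the 4 aged ones. The second young iNKT1 library held the most, at 128, and enters the fit through the spread that all groups share. Between both young iNKT1 libraries, 73.3% of all genes tested lay within 2-fold.

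With limma, more genes were called lower than higher in iNKT17 cells against the iNKT2p sort, and those called lower had larger changes. With limma across 12 libraries, 583 of the 10667 genes were called lower in iNKT17 at an adjusted p under 0.05, which is 5.47%, and 477 were called higher, which is 4.47%. The median size of the change was log2 2.79 among genes called lower and 1.604 among genes called higher. A change of log2 5 or more was met by 56 genes called lower and by 5 called higher. Every log2 difference here is iNKT17 minus iNKT2p on the log2(normalized count + 1) scale, which understates changes of low genes. The median over all genes tested was -0.02. Over these genes edgeR on recovered reads called 553 lower and 531 higher, which is nearly even, and DESeq2 called 748 and 671. Carried-over iNKT17 cells can narrow the differences of genes high in iNKT17, and their part in the unequal sizes was not tested. Leaving out 1 library at a time gave 298 to 409 genes called lower and 182 to 288 called higher over all genes tested, against 612 and 483 with all libraries. By the study's methods both libraries of a sort came from independent sorts of pooled thymi, while the labels give no sort number.

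**Figure D1:**
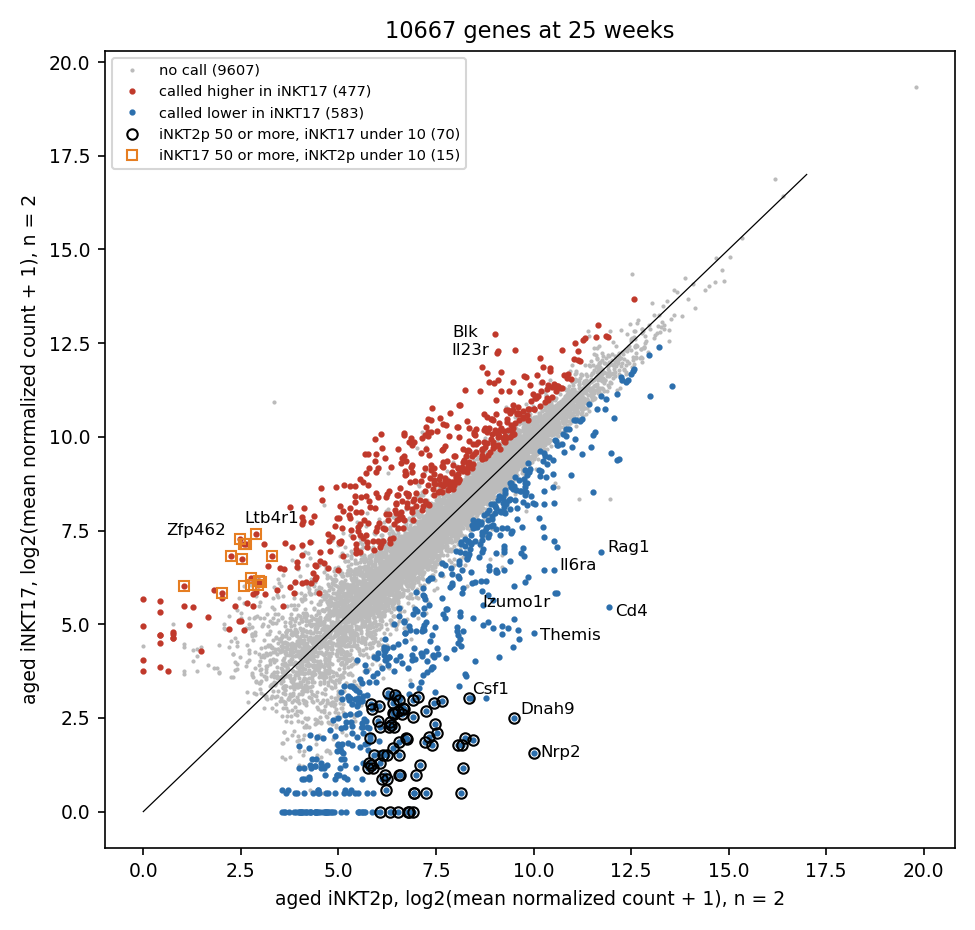
Mean level of each of the 10667 genes in aged iNKT2p (x axis) and aged iNKT17 cells (y axis), both as log2(mean normalized count + 1) over 2 libraries. Red points are the 477 genes called higher in iNKT17 and blue points the 583 called lower; black circles mark 70 genes with at least 50 in both iNKT2p libraries and under 10 in both iNKT17 libraries, and orange squares the 15 genes of the reverse rule.

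The iNKT2p sort held 70 genes that iNKT17 cells hardly had, defined by level as at least 50 normalized counts in both iNKT2p libraries and under 10 in both iNKT17 libraries. They are 0.656% of the genes compared. Since their aged levels chose them, those levels are a description, and the young libraries give the check. Their mean in iNKT2p ran from 52.7 to 1035 with a median of 92.8. In iNKT17, 6 of the 70 had no read in either library and a further 18 had 1 to 3 reads in all. The rule ended within a continuum: Il13 (50.4 and 68.9) was just inside the lower limit in iNKT2p and Nhsl1 (49.7 and 60.3) just outside it, while S1pr1 (9.95 and 4.85 in iNKT17) was just inside the upper limit and Tnfrsf9 (9.12 and 10.7) just outside it.

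At the head of the 70 was Nrp2 (chr1:62703317-62815637, mm10), which encodes neuropilin 2, a co-receptor for semaphorins and VEGF. It was at 899 and 1171 in iNKT2p and at 0 and 3.88 in iNKT17, where its value rests on 4 reads in all. It had the largest difference of all genes called lower (log2 -8.86, standard error 0.60, adjusted p = 6.62e-06), and the ratio of means was 533. A repeat library of the second iNKT17 RNA, made after DNase treatment, held 19.8 of Nrp2 where the untreated library held 3.88. The repeat value is above the upper limit of the rule for iNKT17, and the ratio of 533 does not include it. Young cells showed the same order, with 578 and 622 in iNKT2 and 30.7 and 17.5 in iNKT17 (log2 -4.63, adjusted p = 5.83e-04), and aged iNKT1 cells lay between with 100.2 and 143. Its relative Nrp1, a receptor for the same ligand families, was at 527 and 1192 in aged iNKT2p against 87.1 and 135 in aged iNKT17 (log2 -2.86, adjusted p = 0.00678). Leaving out the first iNKT17 or the second iNKT2p library lost the call of Nrp1, with an adjusted p of up to 0.103, and no alternative lost that of Nrp2.

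The next were genes of signalling and growth factors. Ptpn5, a tyrosine phosphatase, was at 251 and 450.3 in iNKT2p and 1.66 and 3.88 in iNKT17, a ratio of 126 (log2 -6.55, standard error 0.48, adjusted p = 1.03e-05). Csf1, the growth factor of macrophages, was at 279 and 366 against 6.64 and 7.77, a ratio of 44.8 (log2 -5.29, standard error 0.63, adjusted p = 2.64e-04). For each, the rule of level itself set both iNKT2p libraries above both iNKT17 libraries. Wfikkn2, a secreted protein with protease inhibitor domains that binds growth factors of the TGF beta family, was at 273 and 333 against 0 and 5.83 (log2 -6.86, adjusted p = 0.00284). Plce1, a phospholipase C, was at 157 and 143 against 0.830 and 0, where 1 read in all gives a ratio of 339 (95% interval 60.4 to 13411) from counting error only. Pde7b, a phosphodiesterase that breaks down cyclic AMP, had 98.7 and 139 against no read, which makes it at least 44.0-fold higher in iNKT2p with a floor of 3 reads per library.

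Some encode proteins of the cytoskeleton, membrane and nucleus. Pls1, the actin bundling protein plastin 1, was at 289 and 292 in iNKT2p and 2.49 and 0 in iNKT17. In young cells Pls1 was nearly the same, at 284 and 303 and 2.31 and 3.05, and it had the largest difference of the 70 in young cells (log2 -6.33, adjusted p = 4.04e-05). Sp6, a transcription factor of the Sp/KLF family, was at 308 and 268 against 0 and 4.85 (log2 -6.90, adjusted p = 1.18e-04). Cachd1, a protein related to calcium channel subunits, was at 334 and 233 against 0.830 and 0, and both aged iNKT1 libraries were as low (0 and 1.29). Rab27b, a GTPase of secretory vesicles, was at 138 and 84.0 against no read, at least 41.2-fold higher, and at 313 and 384 in aged iNKT1. 4930452B06Rik, which RefSeq names Cfap20dc, was at 285 and 243 against 0 and 4.85. Atp1b1, a subunit of the sodium pump, was at 124 and 226 against 3.32 and 9.71 (log2 -4.63, adjusted p = 0.00105). In aged iNKT1 cells it was higher than in either, at 488 and 570.2. Mctp2, a membrane protein with C2 domains, followed the same order, at 149.8 and 205 in iNKT2p, 4.15 and 3.88 in iNKT17 and 1221 and 1035 in iNKT1, and it had the smallest standard error of the 70 (log2 -5.13, standard error 0.28, adjusted p = 1.04e-06). Alpl, an alkaline phosphatase, was at 172 and 162 against 0 and 4.85 (log2 -6.11, adjusted p = 0.00313), and Cpq, a carboxypeptidase, at 147 and 251 against 5.81 and 7.77 (log2 -4.64, adjusted p = 8.95e-04), with no more than 11.2 of either in aged iNKT1.

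Dnah9, which encodes a heavy chain of axonemal dynein, a motor of cilia, stood out by age. It was at 751 and 699 in aged iNKT2p, second to Nrp2, and at 2.49 and 6.80 in aged iNKT17 (log2 -7.12, standard error 0.79, adjusted p = 1.58e-04). Young iNKT2 cells had 21.8 and 18.0 and young iNKT17 cells 1.54 and 0 (log2 -3.71, adjusted p = 0.0141). The difference was called at each age, and the test of its change between ages did not pass (log2 -3.41, standard error 1.12, adjusted p = 0.572). F13a1, a subunit of clotting factor XIII, was at 92.3 and 224 in aged iNKT2p and 4.98 and 0.971 in aged iNKT17 but at 15.1 and 19.0 and 24.6 and 13.7 in young iNKT2 and iNKT17 (log2 -5.51, standard error 1.16, adjusted p = 0.121 for the change between ages).

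Homing receptors were among the 70 too. Ccr8, a chemokine receptor known from type 2 and regulatory T cells, was at 98.7 and 147 in iNKT2p and 0.830 and 0 in iNKT17 (log2 -6.49, standard error 0.65, adjusted p = 7.93e-05). S1pr1, the receptor that lets T cells leave the thymus, was at 97.9 and 162 against 9.95 and 4.85 (log2 -3.99, adjusted p = 8.33e-05). That the sorts did not overlap for either gene follows from the rule of level. Neither gene was particular to iNKT2p: aged iNKT1 cells had more, with 150.3 and 210 of Ccr8 and 233 and 242 of S1pr1. Il13, a cytokine of type 2 cells, was the only type 2 cytokine gene besides Il4 among the genes compared, and stood at 50.4 and 68.9 against 0.830 and 2.91 (log2 -4.49, adjusted p = 0.0224). The call of Il13 was lost without any 1 of the 4 libraries, with an adjusted p of up to 0.155.

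In the young libraries, 29 of the 70 were called lower in iNKT17, which is 41.4% against 2.49% of all genes compared. The mean was lower in young iNKT17 for 66 of the 70, against 49.6% of the genes compared, and both iNKT2 libraries lay above both iNKT17 libraries for 55. Their fitted young difference had a median of log2 -2.42, against 0.00 over all genes compared, and ran from -6.33 to 0.71. By the same rule of level, 16 genes were held by young iNKT2 cells and hardly by young iNKT17 cells. The lists shared 9 genes, 12.9% of the aged list and 56.3% of the young one. The aged list was not a list of iNKT2 genes alone: 20 of the 70 were at 50 or more in both aged iNKT1 libraries, 11 of them above both iNKT2p libraries, and 26 were under 10 in both. Ms4a4b, a 4-span membrane protein, was at 1974 and 1857 in iNKT1 against 128 and 167 in iNKT2p, and Pstpip2, an adaptor of the actin cytoskeleton, had no read in iNKT1 against 177 and 192 in iNKT2p. In a repeat library of the second iNKT17 RNA made after DNase treatment, 59 of the 70 stayed under 10 and the highest was 63.4.

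**Figure D2:**
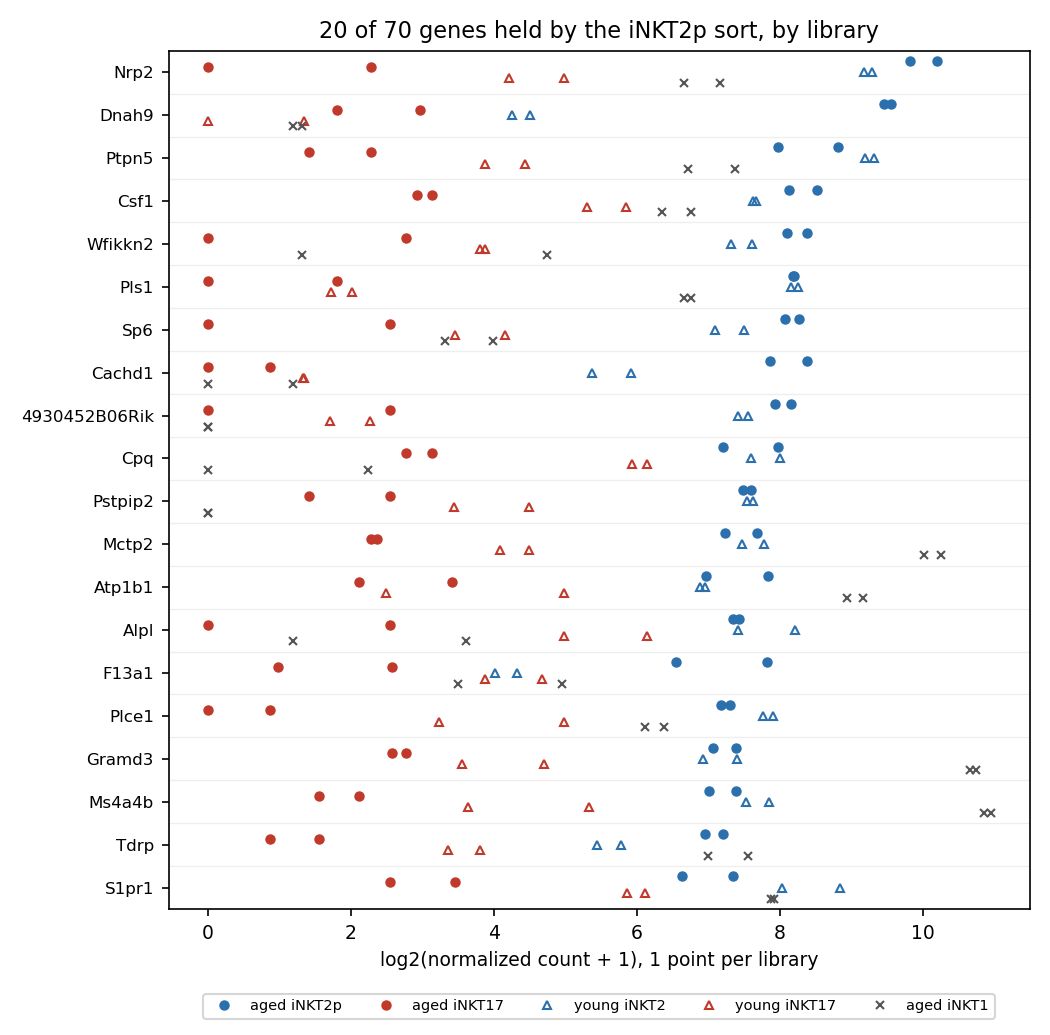
Level of the 20 held genes with the highest mean in aged iNKT2p, as log2(normalized count + 1) on the x axis with 1 point per library. Filled blue circles (aged iNKT2p) lie to the right of filled red circles (aged iNKT17) for every gene, as the rule of level requires. Open triangles are the young libraries, and crosses the aged iNKT1 libraries, which lie furthest to the right for Mctp2, Atp1b1, Gramd3 and Ms4a4b.

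Of 15 iNKT2 marker genes, 9 were lower in iNKT17, against 5.47% of all genes compared. The other 6 did not pass the test, and the list median was log2 -2.41 against -0.01 over all genes compared. Izumo1r, also called folate receptor 4, reached 1558 and 1538 in iNKT2p and 43.1 and 68.0 in iNKT17 (log2 -4.81, standard error 0.22, adjusted p = 4.83e-07). Il6ra, the IL-6 receptor, was at 1427 and 1505 against 91.2 and 81.6 (log2 -4.07, standard error 0.53, adjusted p = 5.15e-04). In young cells Il6ra was at 376 and 615 in iNKT2 and 67.6 and 148 in iNKT17, so both aged iNKT2p libraries were above both young iNKT2 libraries. Slamf6, a receptor of the SLAM family that acts in iNKT cell selection, was at 648 and 689 against 95.4 and 109 (log2 -2.70, adjusted p = 8.25e-06). Lef1, a transcription factor of the Wnt pathway and of early T cells, was at 3866 and 4188 against 707 and 808.7 (log2 -2.41, standard error 0.25, adjusted p = 9.05e-05). Ccr4, the receptor for CCL17 and CCL22, was at 3202 and 2682 against 1088 and 1031 (log2 -1.47, adjusted p = 0.00714). The regulators of the iNKT2 fate were closer together than these genes: Gata3 was at 1180.3 and 1287 in iNKT2p and 1422 and 1671 in iNKT17 (log2 0.32, adjusted p = 0.474) and Zbtb16 differed by log2 -0.48 (adjusted p = 0.29). Il4, the cytokine of iNKT2 cells, was at 116 and 136 against 48.9 and 68.0 (log2 -1.11, adjusted p = 0.299), and Il17rb, a receptor for IL-25, at 345 and 438 against 122 and 146 (log2 -1.54, adjusted p = 0.453), where edgeR on recovered reads gave an adjusted p of 0.0388. Icos, a costimulatory receptor, was at 3788 and 4009 against 3024 and 3320.4 (log2 -0.30, adjusted p = 0.364). The call of Ccr4 was lost without the first iNKT2p or the second iNKT17 library (adjusted p of up to 0.0741).

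Genes of CD4+ CD8+ thymocytes and early iNKT cells formed a group of their own, called thymocyte genes below. Both kinds were listed together, so the list does not tell these cells apart. Of 20 such genes compared, 14 were lower in iNKT17, against 5.47% of all genes compared. The other 6 did not pass the test, and the list median was log2 -3.15. Rag1 (chr2:101638252-101649532), an enzyme subunit of receptor gene rearrangement, was at 3371 and 3424 in iNKT2p and 64.7 and 176 in iNKT17 (log2 -4.98, standard error 0.38, adjusted p = 1.10e-05). Its neighbour Rag2 (chr2:101624748-101630930) was at 108 and 111 against no read, at least 40.5-fold higher in iNKT2p. Dntt, which adds bases at the joins, was at 696 and 604 against 17.4 and 40.8 (log2 -4.55, standard error 0.39, adjusted p = 2.69e-05), and Cd8a at 732 and 702 against 22.4 and 46.6 (log2 -4.43, standard error 0.33, adjusted p = 1.10e-05). Themis, needed for positive selection, was at 889 and 1182 against 22.4 and 30.1 (log2 -5.25, standard error 0.25, adjusted p = 4.83e-07). Ccr9, the receptor for the thymic chemokine CCL25, was at 703 and 723 against 9.12 and 31.1 (log2 -5.31, standard error 0.44, adjusted p = 2.02e-05). Satb1, a chromatin organiser of thymocytes and the most abundant gene of the list, was at 11723 and 12274 against 2417 and 2792 (log2 -2.21, standard error 0.20, adjusted p = 3.45e-05). In each of these genes both iNKT2p libraries were above both iNKT17 libraries, and the aged iNKT1 libraries lay between, as for Rag1 at 782 and 792 and Cd8a at 197 and 205.

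The thymocyte genes were less apart in young cells. There, 4 of the 20 were called lower in iNKT17, against 2.49% of all genes compared, with a median of log2 -0.36. Rag1 was at 873 and 1097 in iNKT2 and 526 and 941 in iNKT17 (log2 -0.48, adjusted p = 0.635). Against young libraries, aged iNKT2p held 3.45 times as much Rag1, 3.76 times as much Dntt and 3.80 times as much Cd8a, while aged iNKT17 held 0.164, 0.153 and 0.204 times as much. Not all thymocyte genes were raised in aged iNKT2p: over 12 of them the ratio ran from 0.750 for Ptcra, a chain of the early T cell receptor that was too low to be among the genes compared, to 4.10 for Arpp21, with 1.05 for Sox4 and 1.43 for Satb1. Of all genes compared, 14 passed the test of the difference between ages, or 0.131%, all with a more negative iNKT17 minus iNKT2 difference in aged mice, and 7 of them were on this list. In limma 0 genes passed in the other direction, 143 had an unadjusted p under 0.05, and edgeR and DESeq2 on recovered reads called 1 and 2. The change was log2 -6.40 for Rag2 (adjusted p = 0.00398), -4.59 for Dntt (adjusted p = 0.00626), -4.50 for Rag1 (adjusted p = 0.00626) and -4.26 for Cd8a (adjusted p = 0.00458). Without the second iNKT2p library the test called 0 genes, and without the first it called 2. Of 8 genes of naive T cells compared, 7 were lower in iNKT17, against 5.47% of all genes compared. Their list summed to 17460 and 19760 in iNKT2p against 6014 and 8647 in iNKT17. It was already apart in young cells, where 4 of the 8 were called lower with a median of log2 -1.65. The test of the difference between ages called 1 of the 8. The list holds Cd4, and the part of conventional T cells or thymocytes in the sort was not tested.

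**Figure D3:**
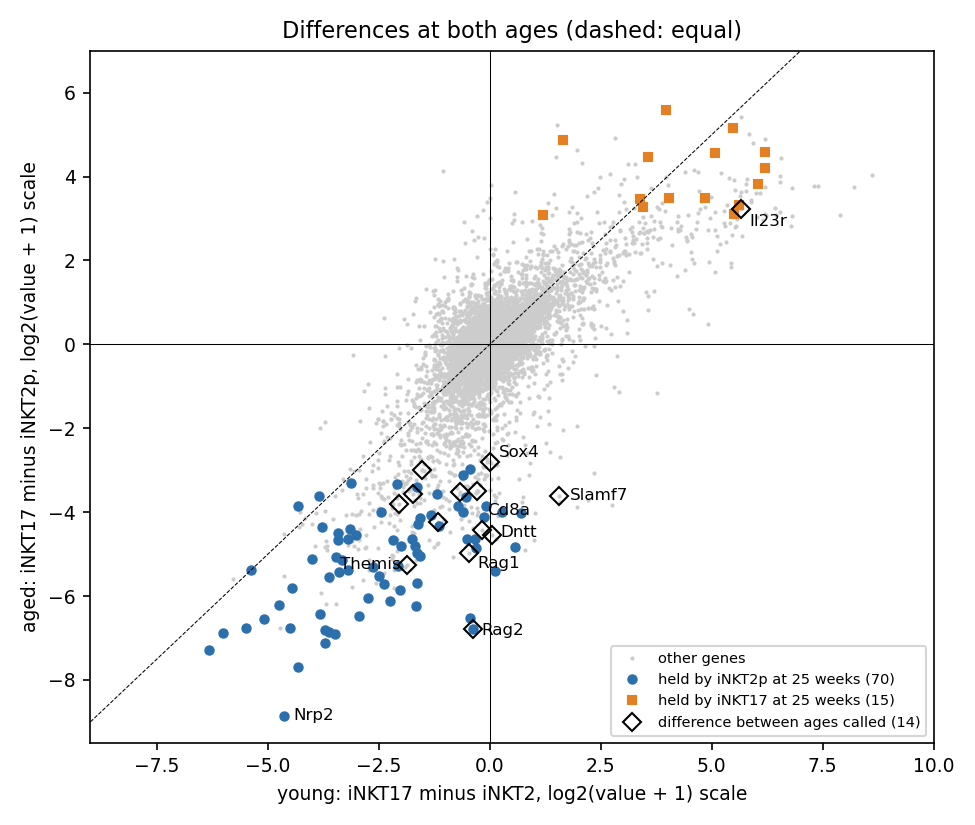
The iNKT17 minus iNKT2 difference of each gene in young mice (x axis) and in aged mice (y axis), both fitted on the log2(normalized count + 1) scale; on the dashed line both are equal. Blue points are the 70 genes held by the aged iNKT2p sort, orange squares the 15 genes of the reverse rule, and black diamonds the 14 genes whose difference between ages passed the test, with Rag1, Rag2, Dntt and Cd8a near 0 on the young axis.

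Genes of mitosis were also higher in the iNKT2p sort. Of 22 genes of G2 and mitosis, 17 were lower in iNKT17, against 5.47% of all genes compared. The other 5 did not pass the test, and the list median was log2 -2.95. Together they summed to 2158 and 2137 normalized counts in iNKT2p and to 252 and 386 in iNKT17, with 663 and 766 in aged iNKT1. Mki67, a marker of cycling cells, was at 294 and 228 against 25.7 and 33.0 (log2 -3.11, standard error 0.35, adjusted p = 1.92e-04), and Cdk1, the kinase that drives entry into mitosis, at 35.5 and 70.03 against 4.15 and 0.971 (log2 -4.00, standard error 0.57, adjusted p = 9.66e-04). Ccnb2, a cyclin of mitosis, was at 58.2 and 108 against 2.49 and 1.94 (log2 -4.65, adjusted p = 1.42e-04). The same list summed to 2027 and 2189 in young iNKT2 and to 1366 and 1473 in young iNKT17. The sums of aged iNKT2p thus lay within those of young iNKT2, and those of aged iNKT17 were below both of young iNKT17. In young cells 0 of the 22 were called by limma, and the median was log2 -0.57. Of the 22, 3 had an unadjusted p under 0.05, and edgeR and DESeq2 called 1 each. By limma 0 of the 22 passed the test of the difference between ages, with an adjusted p of 0.0504 for Ccnb2 and 0.136 for Mki67 and Cdk1. The genes of DNA replication differed less: 8 of 25 were lower in iNKT17, with a list median of log2 -0.55. Another 1 was higher, a share near the 4.47% of all genes compared. Hist1h1b, a linker histone made in S phase, was at 343 and 240.2 against 19.1 and 34.95 (log2 -3.42, adjusted p = 1.99e-04), Stmn1, which destabilises microtubules, at 220.0 and 187 against 39.0 and 35.9 (log2 -2.41, adjusted p = 9.05e-05), and Ezh2, a histone methyltransferase, at 299 and 276 against 87.9 and 85.4 (log2 -1.72, adjusted p = 0.00319). Thymocytes divide, and whether the genes of both groups came from the same cells was not tested.

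**Figure D4:**
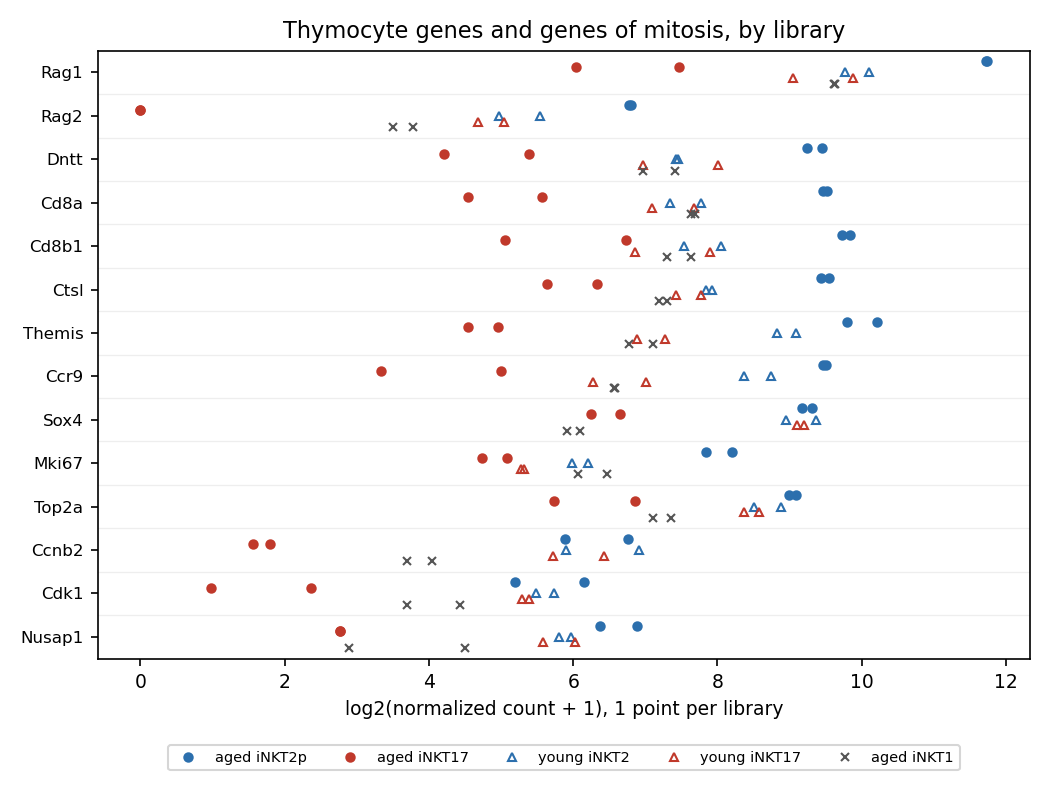
Level of 9 thymocyte genes (Rag1 to Sox4) and 5 genes of mitosis (Mki67 to Nusap1), as log2(normalized count + 1) on the x axis with 1 point per library. The filled red circles of aged iNKT17 lie to the left of all aged iNKT2p circles, while young iNKT2 and young iNKT17 triangles overlap for Rag1, Rag2, Dntt, Cd8a, Cd8b1 and Sox4.

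On the iNKT17 side all 15 marker genes that could be compared were higher in iNKT17, against 4.47% of all genes compared, with a median of log2 2.91. All 15 were also higher in young cells, with a median of 5.27. Il23r (chr6:67422932-67491780), a subunit of the IL-23 receptor, was at 4889 and 5159 in iNKT17 and 480.5 and 607 in iNKT2p (log2 3.22, standard error 0.27, adjusted p = 2.67e-05). Il1r1, the IL-1 receptor, was at 3424 and 3182 against 367 and 534 (log2 2.90, standard error 0.45, adjusted p = 0.00178), and Sdc1, syndecan 1, at 4508 and 5057 against 532 and 539.7 (log2 3.15, standard error 0.57, adjusted p = 0.00429). Blk, a Src family kinase, was at 6623 and 7185 against 504 and 526 (log2 3.74, standard error 0.71, adjusted p = 0.00553). The remaining pair of the list, Il17a and Il17f, had no read in any of the 4 libraries, so that IL-17 itself could not be compared. Socs3, which curbs STAT3 signalling, was at 1276 and 1265 against 193 and 240.2 (log2 2.55, adjusted p = 6.59e-04), and Maf, a transcription factor of IL-17 producing cells, at 3278 and 2863 against 950.4 and 829.5 (log2 1.79, adjusted p = 0.00109). Serpinb1a, an inhibitor of neutrophil proteases, was at 869 and 975 against 86.6 and 135 (log2 3.08, adjusted p = 0.0195), Aqp3, a channel for water and glycerol, at 1595 and 1592 against 179 and 281 (log2 2.82, standard error 0.24, adjusted p = 2.81e-05), and Tmem176b, a membrane protein of type 17 cells, at 2500.2 and 2385 against 297 and 308 (log2 3.01, adjusted p = 0.0134). Itgae, the integrin chain CD103, was high in both sorts, at 8183 and 8164 against 3395 and 3043 (log2 1.35, adjusted p = 0.0109). The call of Sdc1 was lost without the second iNKT17 library (adjusted p = 0.0502), that of Blk without either iNKT2p library or the second iNKT17 library (up to 0.056), and those of Serpinb1a, Tmem176b and Itgae without any 1 of the 4 libraries (up to 0.139, 0.0951 and 0.105). A pseudocount of 0.5 also lost Serpinb1a, and a fit with no variance trend Tmem176b.

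For most genes specific to young iNKT17 cells, the aged iNKT2p sort held a low share of the level in aged iNKT17. Of 116 genes specific to young iNKT17 cells (called higher there than in each of the other young subsets, by log2 2 or more) with a mean of at least 100 in aged iNKT17, the level in iNKT2p was a median of 14.0% of that in iNKT17. It was 12.3% in the first iNKT2p library and 16.0% in the second. Of the 116 genes, 74, or 63.8%, lay between 5% and 20%, 35 lay over 20% and 7 under 5%, with a highest share of 59.1%. In young cells, where the rule itself keeps it low, the median was 4.83%. Over all 418 genes called higher in aged iNKT17 with a mean of at least 100, the median was 36.4% and the lowest 2.97%. Of these 418, 7 were under 5%, 308 over 20% and 107 over 50%. Among the 339 genes called lower with a mean of at least 100 in iNKT2p, the level in iNKT17 was a median of 29.5% of that in iNKT2p, with 47 under 5% and 22 under 2%. The part of carried-over iNKT17 cells in these shares was not tested.

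**Figure D5:**
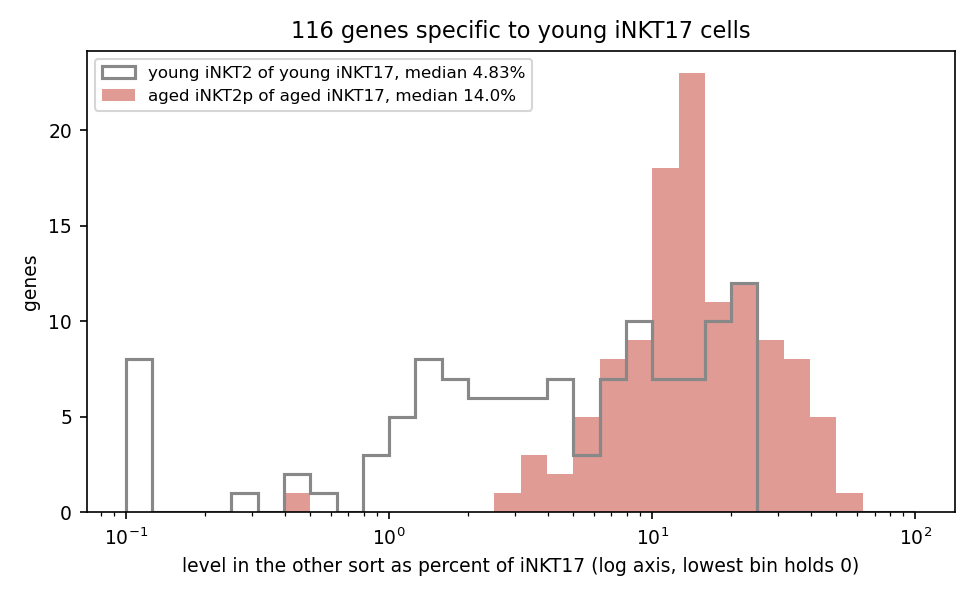
Number of genes (y axis) by the level in the CD4+ sort as a percent of the level in iNKT17 (x axis, log scale, with 0 placed in the lowest bin), for 116 genes specific to young iNKT17 cells. The aged values in red gather around a median of 14.0%, and the young values in grey spread more widely around a median of 4.83%.

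By the reverse of the rule of level, 15 genes were held by iNKT17 cells and hardly by the iNKT2p sort, which is 0.141% of the genes compared, and the highest mean in iNKT17 was 168. Ltb4r1, a receptor for leukotriene B4, was at 147 and 188 in iNKT17 and 8.52 and 4.31 in iNKT2p, a ratio of 26.1. Ccr6 (chr17:8236043-8257068), the receptor for CCL20, was at 98.7 and 113 against 4.26 and 5.39, a ratio of 21.9, and Pltp, a phospholipid transfer protein, at 101 and 123 against 4.26 and 3.23, a ratio of 30.0. Zfp462, a zinc finger protein, was at 134 and 177 against 9.23 and 0 and had the largest difference of all genes called higher (log2 5.60, standard error 1.03, adjusted p = 0.00483). In young cells 12 of the 15 were called higher in iNKT17, or 80%, against 4.69% of all genes compared, and all 15 had both iNKT17 libraries above both iNKT2 libraries. By the same rule of level, 52 genes were held by young iNKT17 cells and hardly by young iNKT2 cells, against 16 in the other direction. Of the 52, 6 were among the aged 15. The larger count lay on the iNKT17 side in young cells and on the iNKT2p side in aged cells. These counts depend on the limit of under 10, which a high iNKT17 gene with an iNKT2p share near the median of 14.0% cannot meet. Il23r, at 480.5 and 607 in iNKT2p, is an example. The part of carried-over iNKT17 cells in the smaller aged count was not tested. Outside that rule but with large differences were Flt4, a receptor for VEGF-C, at 1008 and 954 against 66.0 and 53.9 (log2 4.02, standard error 0.56, adjusted p = 8.31e-04), Stab2, a scavenger receptor, at 1078 and 1089 against 51.1 and 84.0 (log2 4.03, standard error 0.80, adjusted p = 0.00733), and Mycn, a transcription factor of the Myc family, at 426 and 414 against 46.1 and 22.6 (log2 3.66, adjusted p = 0.00501). Cdh10, a cadherin, was at 271 and 287 against 22.7 and 2.15 (log2 5.02, adjusted p = 0.00598), and Nfil3, a transcription factor of innate lymphocytes, at 186 and 97.1 against 22.7 and 0 (log2 4.80, adjusted p = 0.0221). Ptgdr2, a receptor for prostaglandin D2, was at 779 and 709.7 against 55.4 and 45.2 (log2 3.87, standard error 0.35, adjusted p = 3.84e-05), and Pik3ap1, an adaptor of PI3 kinase, at 752 and 749 against 57.5 and 64.6 (log2 3.60, standard error 0.47, adjusted p = 5.08e-04). The call of Mycn was lost without the second iNKT2p library (adjusted p = 0.0674), and those of Ltb4r1, Zfp462, Stab2, Cdh10 and Nfil3 without the second iNKT17 library (up to 0.0864). They were also lost for Stab2 without the first library of either sort (up to 0.0712), for Ltb4r1, Cdh10 and Nfil3 without the second iNKT2p library (up to 0.149), and for Cdh10 and Nfil3 without the first iNKT17 library. Both fits with DESeq2 on recovered reads lost Zfp462 and Nfil3 (up to 0.435 and 0.393), and Nfil3 was also lost with only the libraries compared and with no variance trend.

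Receptors were called in both directions. Of 22 chemokine and homing receptors, 8 were higher and 9 lower in iNKT17, against 4.47% and 5.47% of all genes compared. Ccr2, a receptor of inflammatory homing, was at 3161 and 3573 in iNKT17 against 601 and 548 in iNKT2p (log2 2.55, standard error 0.25, adjusted p = 6.40e-05), and Cxcr6 at 5201 and 4996 against 1694 and 1684 (log2 1.59, standard error 0.19, adjusted p = 2.57e-04). In the other direction Itga4, the alpha 4 integrin chain, was at 527 and 649 in iNKT2p against 13.3 and 37.9 in iNKT17 (log2 -4.64, standard error 0.44, adjusted p = 5.13e-05), and Ccr7, the lymph node homing receptor, at 461 and 444 against 32.4 and 74.8 (log2 -3.17, adjusted p = 0.045). Of 22 genes of the IL-23, IL-1 and IL-17 receptors and the STAT3 pathway, 9 were higher and 3 lower, and of 7 genes of the IL-2, IL-7 and IL-15 receptors, Il2ra and Il7r were higher. Il18r1, a receptor chain for IL-18, was at 6568 and 6252 in iNKT17 against 2718 and 2348 in iNKT2p (log2 1.34, adjusted p = 0.00143), and Ahr, a ligand-activated transcription factor of type 17 cells, at 257 and 284 against 106 and 127 (log2 1.21, adjusted p = 0.00248). Il2ra was at 1842 and 1871 in iNKT17 against 281 and 275 in iNKT2p (log2 2.74, adjusted p = 0.00366) and Il7r at 12523 and 13591 against 5782 and 6514 (log2 1.09, adjusted p = 0.00545). Among 16 neuropilins, plexins and semaphorins with the VEGF receptors, 5 were higher and 3 lower, and Plxnd1 was at 2729 and 2854 in iNKT17 against 566 and 455 in iNKT2p (log2 2.46, adjusted p = 0.0315), opposite to both neuropilins. The calls of Ccr7 and Plxnd1 were lost without any 1 of the 4 libraries (adjusted p of up to 0.264 and 0.205). A fit without a filter or without a variance trend lost both, and Ccr7 was also lost with a pseudocount of 0.5, with only the 6 aged libraries and without the 3 young libraries that held epithelial reads. The call of Il7r was lost without the first iNKT2p or the second iNKT17 library (up to 0.0635).

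In the TNF family, 4 of 21 genes were lower and 3 higher in iNKT17, against 5.47% and 4.47% of all genes compared. Cd27, a costimulatory receptor, was at 804.1 and 833 in iNKT2p against 125 and 111 in iNKT17 (log2 -2.79, standard error 0.21, adjusted p = 1.10e-05), Tnfrsf9, known as 4-1BB, at 141 and 135 against 9.12 and 10.7 (log2 -3.67, standard error 0.37, adjusted p = 8.70e-05), and Tnfsf4, the ligand of OX40, at 39.0 and 101 against 0 and 3.88 (log2 -4.86, adjusted p = 8.78e-04). Tnfsf14, known as LIGHT, was at 919 and 927 in iNKT17 against 124 and 117 in iNKT2p (log2 2.92, standard error 0.19, adjusted p = 5.40e-06). Of 30 genes of T cell receptor signalling, 8 were lower, among them Cd4 of the gate, and 2 higher, the latter a share near the 4.47% of all genes compared. Cd2, an adhesion receptor, was at 345 and 562 in iNKT2p against 12.4 and 52.4 in iNKT17 (log2 -4.04, standard error 0.52, adjusted p = 4.68e-04) and Cd28, the main costimulator, at 2993 and 3105 against 1084 and 1157 (log2 -1.44, standard error 0.18, adjusted p = 3.21e-04), while Zap70, the kinase bound to the receptor, was at 1867 and 1829 against 3191 and 2912 (log2 0.72, adjusted p = 0.0267). In the Notch pathway the direction differed by gene: of 13 genes 3 were lower and 2 higher, with Hey1 at 251 and 179 in iNKT2p against 14.9 and 17.5 in iNKT17 (log2 -3.63, adjusted p = 0.00117) and Dtx1, which modifies Notch signalling, at 121 and 84.0 against 1099 and 1020.4 (log2 3.38, adjusted p = 1.96e-04). The call of Zap70 was lost without any 1 of the 4 libraries (adjusted p of up to 0.164) and with no variance trend.

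Genes of iNKT1 cells were low in both sorts. The list of 29 summed to 546 and 462 in iNKT2p and to 413 and 553 in iNKT17, against 31030 and 31170 in aged iNKT1. Of the 13 that could be compared, 7 were lower and 2 higher in iNKT17, against 5.47% and 4.47% of all genes compared. Tbx21, which encodes TBET, was at 104 and 37.7 in iNKT2p against 14.9 and 19.4 in iNKT17 (log2 -1.82, adjusted p = 0.0123) and at 2168 and 1920.5 in iNKT1. Cxcr3, a chemokine receptor of type 1 lymphocytes, was at 115 and 74.3 against 1.66 and 12.6 (log2 -3.96, adjusted p = 0.00188). Klrb1c, which encodes NK1.1 in strains that have it, went the other way, at 41.2 and 52.8 against 245 and 264 (log2 2.42, adjusted p = 2.42e-04). Of 3 genes known from gamma delta T cells that were compared, 2 were higher in iNKT17 and the other did not pass the test: 5830411N06Rik, listed as Scart2 in RefSeq, was at 5247 and 4909 in iNKT17 against 625 and 846 in iNKT2p (log2 2.80, adjusted p = 1.10e-05) and Cd163l1, listed as Scart1, at 332 and 276 against 46.8 and 37.7 (log2 2.82, adjusted p = 0.00358). The call of Tbx21 was lost without the first iNKT2p or the first iNKT17 library (adjusted p of up to 0.0934), and a fit of only the libraries compared lost Tbx21 and Cxcr3 (adjusted p = 0.145 and 0.054).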

How the data were processed

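Total RNA of sorted iNKT cells was sequenced in 12 libraries, with a DNase-treated repeat of the second aged iNKT17 library. The authors used a stranded kit for total RNA, aligned reads to mm10 with STAR 2.5.0c, counted reads on the strand of each gene using featureCounts and scaled them by DESeq2 size factors. The deposited signal is therefore normalized counts, and 100% of values came out as whole reads within a tolerance of 0.01. The adjusted p-values of 9 comparisons in the table, the authors' own, were not used. Depth ran from 3590903 to 9107274 reads in genes, and intervals and floors of 3 reads cover counting error only.

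Differences were tested with limma 3.58.1 (R 4.3.3) on log2(normalized count + 1), allowing for a trend of the variance with the level, over 12 libraries in 6 groups and the 11530 genes with at least 10 in at least 2 of them, with Benjamini-Hochberg adjustment over all of these genes. An exact permutation test of 2 against 2 libraries cannot go below p = 0.333. The scripts were tested on simulated data. Alternatives were edgeR 4.0.16 and DESeq2 1.42.0 on recovered reads, other pseudocounts, filters and scalings, other sets of libraries and each library left out; DESeq2 on the 4 libraries compared and a fit without 3 young libraries holding epithelial and Y-linked reads were added after seeing the data. Genes compared, gene lists and tests were chosen with earlier results of these data known. Named genes are the 12 with the largest change in each direction (with groups apart and a mean of at least 50), the 20 highest held genes, the 8 highest of the reverse rule, those with a called difference between ages, up to 4 of each list and those the study names. Others, such as Nrp1, Plxnd1, Gata3, Il17rb, Ccr2, Cxcr6, Cd28, Zap70, Klrb1c, Mki67 and Mir6240, were chosen after their values were seen, and some genes that meet the rule are not reported here. Histone, Klra and H2 genes share reads with close copies. Promoters and gene names came from RefSeq tables (GRCm38.p6).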

Additional observations from a re-analysis of the deposited data

Results flagged for a closer look

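For 14 genes the iNKT17 minus iNKT2 difference was more negative in aged than in young mice by the test of the difference between ages. On the log2 scale the change was -6.40 for Rag2, -4.59 for Dntt, -4.50 for Rag1, -4.26 for Cd8a, -3.38 for Themis, -3.22 for Ctsl, a lysosomal protease of thymocytes and thymic epithelium, and -2.79 for Sox4, a transcription factor of early lymphocytes. It was -3.05 for Igfbp4, which binds insulin-like growth factors, -2.83 for the histone gene Hist1h2af, -1.83 for Ptger4, a prostaglandin E2 receptor, -1.74 for Chn2, a GTPase activating protein, and -1.46 for Fam3c, a secreted protein. Sox4 was equal in young iNKT2 (494 and 657) and iNKT17 cells (589 and 549.9) and apart in aged iNKT2p (574 and 632) and iNKT17 (74.7 and 99.0). Igfbp4 was lower in aged than in young libraries in both sorts, at 458 and 712 in aged iNKT2p and 25.7 and 34.0 in aged iNKT17 against 2072 and 1279.7 and 809.95 and 638. The change of -2.44 for Il23r went with a level in iNKT2p of 480.5 and 607 against 76.6 and 72.0 in young iNKT2, while iNKT17 cells had 4889 and 5159 and 4004 and 3574. The change of -5.16 for Slamf7 rests on few reads, with 10.6 and 11.8 in aged iNKT2p, 3.84 and 0.763 in young iNKT17 and no read in aged iNKT17 or young iNKT2.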

How the results depend on the processing

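With 2 libraries per sort, the number of calls followed the set of libraries and the tool more than any setting of scale. Over all genes tested, 483 were called higher and 612 lower in aged iNKT17, and every other scaling, filter and pseudocount stayed within 1.5 times of these. Only the 6 aged libraries gave 877 and 955, DESeq2 on the 4 libraries compared gave 909 and 950, and leaving out the 3 young libraries with epithelial reads gave 862 and 970. Leaving out 1 library at a time, where a sort is left with a lone library that is assumed to vary like the other groups, gave 182 to 288 and 298 to 409. In young cells 515 and 280 were called, 323 and 165 from only the libraries compared, and 233 and 102 from only the 6 young libraries. DESeq2 called 444 lower with all libraries and 432 with the 4 compared, and leaving out 1 library gave 243 to 441 higher and 108 to 158 lower.

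For the difference between ages, 0 genes were called higher and 14 lower. Only the libraries compared gave 2 and 26, no variance trend gave 5 and 39, edgeR gave 1 and 38, DESeq2 gave 2 and 111, and the fit without 3 young libraries gave 4 and 47. A pseudocount of 5 gave 25 lower and the DNase-treated repeat in place of its untreated library 27, and leaving out 1 library gave 0 to 17.

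The 70 genes held by iNKT2p became 21 with a minimum of 100, 41 with a limit of 5 in iNKT17 and 123 with a ratio of 10 in place of the limit, and 82 to 111 when 1 library was left out. The 15 genes of the reverse rule became 6, 3 and 45, and 19 to 30. The share of 14.0% moved by less than the difference between both iNKT2p libraries under each alternative run.

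Of the 102 genes named here or drawn in a plot that were called, 79 kept their call under every alternative. No gene named turned its direction. No paired analysis was made, because the labels give no replicate number or sort that the groups share. By the study's methods the subsets were sorted from pooled thymi, so iNKT17 and iNKT2p libraries may share mice, which the fit does not use. Depth limits the low side: a gene without a read may have held up to 2.13 to 3.23 normalized counts in a library.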

Other observations

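H2-Q10, a class Ib molecule of the MHC, was higher in aged iNKT17 cells at 1365 and 844 than in the iNKT2p sort at 95.8 and 107 (log2 3.40, standard error 0.80, adjusted p = 0.02). Young iNKT2 and iNKT17 cells had 72.8 and 90.1 and 77.6 and 77.0 and aged iNKT1 cells 142 and 158. Young iNKT1 cells had 1191 and 94.4, so 1 young iNKT1 library lay above the second aged iNKT17 library. The test of the change between ages did not pass (log2 3.46, standard error 1.13, adjusted p = 0.572), and the call in aged cells was lost without any 1 of the 4 libraries (adjusted p of up to 0.142) and with no variance trend. H2 genes are close copies of each other, and reads may be split between them.

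Some of the 70 held genes, chosen after their values were seen, showed no such difference in young cells. Marcks, a substrate of protein kinase C, was at 88.7 and 152 in aged iNKT2p and 9.95 and 3.88 in aged iNKT17 but at 33.1 and 41.7 and 33.0 and 61.0 in young iNKT2 and iNKT17 (log2 -4.27, standard error 0.71, adjusted p = 0.0504 for the change). Endou, an RNA-cutting enzyme, was at 121 and 118 and 0.830 and 8.74 in aged and 30.3 and 28.4 and 41.5 and 45.8 in young cells (log2 -5.39, standard error 0.97, adjusted p = 0.0745). Ptprg, a receptor phosphatase, was at 103 and 79.7 in aged iNKT2p and at most 6.10 in aged iNKT17, aged iNKT1 and young iNKT2 and iNKT17 libraries, but at 0 and 48.1 in young iNKT1 (log2 -6.08, standard error 2.19, adjusted p = 0.691), and its call in aged cells was lost without any 1 of the 4 libraries (adjusted p of up to 0.117) and with DESeq2 on recovered reads of all libraries.

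Mir6240, also chosen after its values were seen, was at 2192 and 2109 in young iNKT17 and at 3913 and 10.7 in the first and second aged iNKT17 library. The DNase-treated repeat of the second held 18.5, and both aged iNKT2p libraries 12.1 and 6.46, so 1 aged iNKT17 library decides its mean.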
